A study of Rattus norvegicus with 18 samples.

Results

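Expression of 8 genes that mark alveolar type I cells, Ager, Aqp5, Hopx, Akap5, Pdpn, Cav1, Emp2 and Clic5, was followed in rat lung around birth through all array probe sets annotated to them. This gave 11 probe sets, 3 for Cav1, 2 for Emp2 and 1 for each other gene, out of the 21675 probe sets and 11590 named genes that were bright enough to test. The lungs were those of Wistar rats at 3 stages: fetal day 19 (FD19, named canalicular in the labels), fetal day 22 (FD22, named prenatal saccular) and 5 h after birth (P1, named postnatal saccular). Fetuses were delivered by Caesarean section and newborns vaginally, so for P1 against FD22 or FD19 stage and route of delivery cannot be told apart. Each stage held 3 independent litters, and each of the 9 whole-lung lysates gave RNA from large polysomes (more than 7 ribosomes per mRNA) and total RNA. The 18 arrays therefore form 6 groups of 3, polysomal and total RNA at each stage. Values are linear signals of Affymetrix Rat Genome 230 2.0 arrays. Changes are log2 differences of the signal plus 5.5, with the standard error (SE) and adjusted p of limma, n = 3 arrays per group.

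Type I cells are the very thin epithelial cells that cover most of the alveolar surface and across which gases pass between air and blood. They arise during late fetal lung development from progenitors that also give rise to the surfactant-producing type II cells. An mRNA carried by many ribosomes at the same time is usually being translated actively. Its share on large polysomes is therefore used as a measure of its translation. That share also depends on the length of the coding sequence, since a short one has room for fewer ribosomes. Coding length was not taken into account here. Several of the 8 genes are not restricted to type I cells: Cav1 is also abundant in endothelium, Pdpn in lymphatic endothelium and mesothelium, and Aqp5 in airway glands.

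RefSeq, assembly GRCr8, gave 9 promoters for 8 of 8 genes. Those of Ager, Aqp5 and Akap5 are shown because these genes had large rises before birth in both fractions and promoters of unlike base composition, and they were chosen after these values were seen. Each of the 3 is printed as the 250 bases before the start of transcription, with matches to the motifs searched in capitals.
Ager (chr20:4155686-4155935, minus strand): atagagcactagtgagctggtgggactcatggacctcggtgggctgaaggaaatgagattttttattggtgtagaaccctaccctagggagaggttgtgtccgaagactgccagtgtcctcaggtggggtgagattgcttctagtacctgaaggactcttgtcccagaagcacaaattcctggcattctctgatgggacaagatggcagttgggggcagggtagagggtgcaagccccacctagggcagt
Aqp5 (chr7:132601278-132601527, plus strand): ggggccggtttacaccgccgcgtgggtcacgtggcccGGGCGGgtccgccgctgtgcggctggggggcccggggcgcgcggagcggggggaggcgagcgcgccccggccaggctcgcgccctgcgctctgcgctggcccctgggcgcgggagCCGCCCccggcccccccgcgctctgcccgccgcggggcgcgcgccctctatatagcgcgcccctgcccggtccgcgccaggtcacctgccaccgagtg
Akap5 (chr6:100786919-100787168, plus strand): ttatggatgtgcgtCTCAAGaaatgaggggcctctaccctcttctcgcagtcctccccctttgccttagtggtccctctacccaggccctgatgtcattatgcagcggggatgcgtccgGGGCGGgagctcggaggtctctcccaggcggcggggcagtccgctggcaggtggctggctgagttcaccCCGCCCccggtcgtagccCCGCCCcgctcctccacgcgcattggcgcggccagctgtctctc
Motifs were searched on both strands in the 250 bases before and 50 bases after the start, and no matches of different motifs overlapped. The Sp1 motif GGGCGG was found in 6 of the 9 promoters and in 33.1% of 33469 rat promoters of the same length. This motif holds only G and C, and the 9 promoters, both Cav1 starts included, had a GC content of 51.0% to 82.3%. Whether the count exceeds that of promoters of like GC content was not tested. The NKX2-1 motif CTCAAG was found in 1 of the 9, that of Akap5, against 15.8% of all promoters. The TEAD motif GGAATG and the GATA motif AGATAA were found in 0 of the 9, against 14.2% and 11.6% of all promoters. The promoters of Ager, Hopx and the second Cav1 start held no match to any of the 4 motifs. Base composition differed among the promoters shown, with a GC content of 54.3% for Ager, 82.3% for Aqp5 and 69.0% for Akap5, against a median of 51.7% over all promoters. A match describes these letters in this window and was not tested as a binding site.

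All arrays had been scaled to the same 2% trimmed mean of 150.0, and their median signals lay between 51.6 and 73.5. The surfactant gene Sftpc, a defining epithelial marker of lung, was bright in all 6 groups, with group means between 4301 and 7039.9. In 6 of 6 groups the array numbered 1 had the lowest median signal. The polysomal array of FD19 lysate 3 stood apart in the genes described here. All 11 probe sets were brighter on it than the mean of the other 2 polysomal FD19 arrays, by a median of 0.40 on the log2 scale, against 53.9% of all probe sets tested and a median of 0.02. The total RNA array of the same lysate had 9 of 11 above the other 2 total FD19 arrays, with a median of 0.32. The polysomal excess was 1.55 for Aqp5, 1.38 for Ager, 1.22 for Hopx, 1.07 for Akap5 and 0.49 for Clic5, whereas in total RNA the same lysate differed by 0.39, -0.19, 0.05, 1.10 and -0.07 in these genes. Genes of some other cell types were also high on that polysomal array. Above the mean of the other 2 arrays lay 9 of 10 type II cell, 5 of 5 airway and 6 of 6 leukocyte markers. So did 5 of 6 fibroblast, 3 of 4 lymphatic, 3 of 4 mesothelial, 7 of 11 endothelial and 5 of 8 general epithelial markers. Only 1 of 6 smooth muscle and 1 of 5 erythroid markers lay above that mean (medians -0.13 and -0.14). Of 98 other probe sets that were more than 4-fold higher in total RNA at FD22 than at FD19, 94 (95.9%) lay above it, by a median of 0.93. The main results that rest on this lysate are given with and without it.

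**Figure D1:**
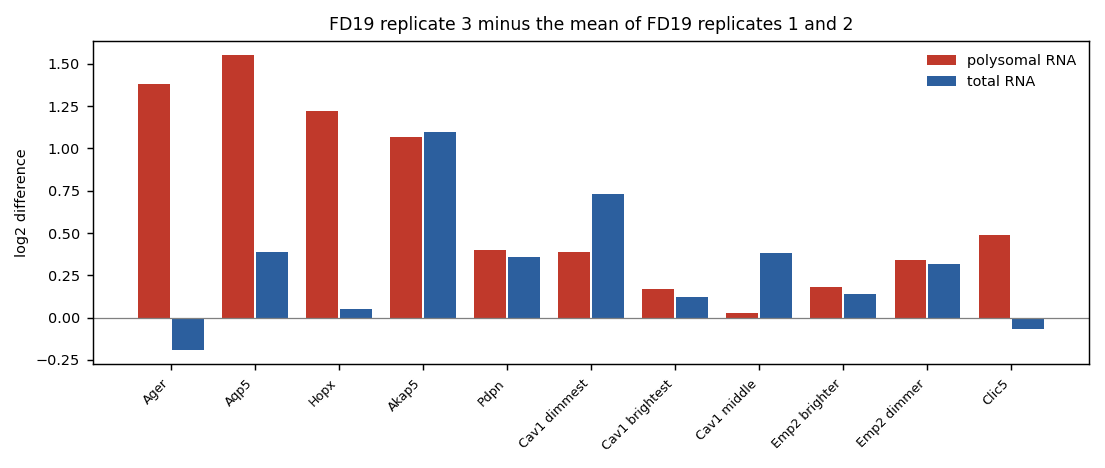
Log2 signal of FD19 replicate 3 minus the mean of FD19 replicates 1 and 2 for each of the 11 probe sets, in polysomal and total RNA. In polysomal RNA all 11 bars lie above 0, up to 1.55 for Aqp5, while in total RNA the bars of Ager (-0.19) and Clic5 (-0.07) lie below 0.

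The comparison of FD22 with FD19 asked when the type I cell genes rose before birth, and whether mRNA on large polysomes rose with the total. All 8 genes were higher at FD22 in both fractions. In polysomal RNA 9 of 11 probe sets passed the threshold of an adjusted p under 0.05, against 8.22% of all probe sets called higher, and the exceptions were 2 of the 3 probe sets of Cav1. In total RNA 11 of 11 passed, against a background of 8.42%. The median log2 difference of the 11 probe sets was 1.17 in polysomal RNA and 1.68 in total RNA, where the medians of all probe sets tested were -0.02 and 0.01. The 3 FD22 arrays lay above the 3 FD19 arrays for 10 of 11 probe sets in polysomal RNA (15.7% of all probe sets) and for 11 of 11 in total RNA (16.3%). All 11 probe sets passed the filter on low signal, but Aqp5 passed it only through its later arrays, since 1 of 3 polysomal and 0 of 3 total FD19 arrays were above 40.8. In these whole-lung samples, more cells of a type and more RNA per cell cannot be told apart. The count in polysomal RNA was 9 with and without FD19 lysate 3.

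**Figure D2:**
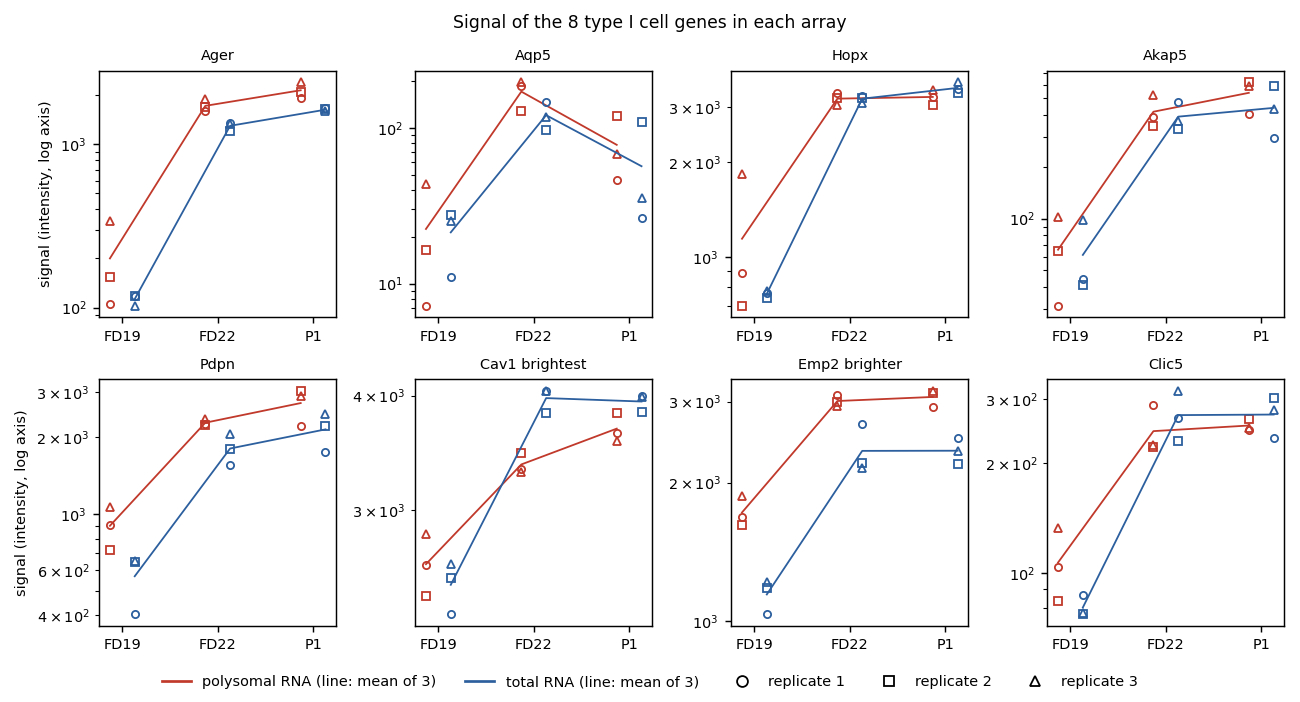
Signal (intensity, log axis) of the 8 genes in each of the 18 arrays, with polysomal RNA left of total RNA at each stage, symbols for the 3 replicates and lines through the group means. Ager has group means of 200.1 (polysomal) and 113 (total) at FD19 and at least 1214 on every FD22 array, and Aqp5 is the gene whose P1 means lie below its FD22 means in both fractions.

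Ager encodes the receptor for advanced glycation end products, a membrane receptor that in lung is concentrated on the basal side of type I cells. Its polysomal signals were, in the order of lysates 1, 2 and 3 used throughout, 105, 154 and 341 at FD19, 1593.5, 1686 and 1885 at FD22, and 1935, 2082 and 2415 at P1. Its total RNA signals were 119, 117 and 103 at FD19, 1347, 1214 and 1337 at FD22, and 1659, 1640.1 and 1593 at P1. Both FD22 groups and both P1 groups lay far above their FD19 group with no overlap, and within polysomal FD19 the array of lysate 3 was the highest. Ager rose by 3.23 ± 0.25 (SE) in polysomal RNA, a 9.41-fold difference (adjusted p = 4.18e-07), and by 3.46 ± 0.25 in total RNA, an 11-fold difference (adjusted p = 1.29e-07). The polysomal rise was 3.69 without FD19 lysate 3.

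Aqp5 encodes aquaporin 5, a water channel of the apical membrane of type I cells. Its polysomal signals were 7.2, 16.5 and 43.5 at FD19, 186, 129 and 197 at FD22, and 46.5, 119 and 68.0 at P1. In total RNA they were 11, 27.7 and 25.2 at FD19, 147, 97.1 and 117 at FD22, and 26.4, 108 and 35.3 at P1. The FD19 signals were below the filter level of 40.8 on 5 of 6 arrays, the FD22 arrays were the highest group in each fraction, and at P1 the arrays of lysate 2 (119 polysomal, 108 total) stood above those of lysates 1 and 3 in both fractions. At FD22 against FD19 Aqp5 rose by 2.86 ± 0.47 in polysomal RNA (adjusted p = 0.000338) and by 2.28 ± 0.47 in total RNA (adjusted p = 0.00218). Because the FD19 signals were of the same order as the added constant of 5.5, these differences depend on that constant, and the value for total RNA ran from 1.63 to 2.53 over the alternatives. Leaving out FD19 lysate 3 gave a polysomal rise of 3.38.

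Clic5 encodes a chloride intracellular channel protein that associates with the actin cytoskeleton and ezrin. Its polysomal signals were 104, 83.4 and 133 at FD19, 289.5, 221 and 224 at FD22, and 246.5, 264 and 250.5 at P1, and its total RNA signals were 86.6, 76.8 and 77.4 at FD19, 267, 229.8 and 316 at FD22, and 234, 302 and 279 at P1. The P1 and FD22 arrays overlapped and lay above every FD19 array of their fraction. The rise by FD22 was 1.17 ± 0.17 in polysomal RNA (adjusted p = 0.000119) and 1.68 ± 0.17 in total RNA (adjusted p = 2.84e-06). Without FD19 lysate 3 the polysomal rise was 1.33.

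Pdpn encodes podoplanin, the mucin-type membrane glycoprotein also known in rat lung as T1-alpha. Its polysomal signals were 900.3, 725 and 1068 at FD19, 2258, 2223.5 and 2353 at FD22, and 2207, 3046 and 2909 at P1. Its total RNA signals were 403, 648 and 656 at FD19, 1555, 1795 and 2065 at FD22, and 1749.6, 2218 and 2469 at P1. Every FD22 and P1 array lay above every FD19 array of its fraction, and the polysomal signal exceeded the total signal in 9 of 9 lysates. Pdpn rose by 1.36 ± 0.19 in polysomal RNA (adjusted p = 7.72e-05) and by 1.68 ± 0.19 in total RNA (adjusted p = 7.49e-06).

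Cav1 encodes caveolin 1, the coat protein of caveolae, and had the smallest rise of the 8 genes by its brightest probe set. On that probe set the polysomal signals were 2613, 2411 and 2822 at FD19, 3326.5, 3461 and 3300.5 at FD22, and 3639, 3832 and 3569 at P1, and the total RNA signals were 2304, 2528 and 2617 at FD19, 4047, 3826 and 4050.4 at FD22, and 3999, 3839 and 3983 at P1. The FD22 arrays lay above the FD19 arrays in both fractions, by 0.36 ± 0.09 in polysomal RNA (adjusted p = 0.00625) and 0.68 ± 0.09 in total RNA (adjusted p = 2.41e-05). Without FD19 lysate 2 the polysomal difference was 0.31 and did not pass (adjusted p = 0.0649). On the dimmest probe set the polysomal signals were 509, 586.5 and 717.5 at FD19, 591, 1597 and 599.8 at FD22, and 725, 849.9 and 1096 at P1, and the total RNA signals were 144, 363 and 382 at FD19, 846, 1048 and 410.3 at FD22, and 1015.5, 647.5 and 674 at P1. This probe set varied most between replicates, with a single high polysomal FD22 array (lysate 2) and overlapping polysomal groups. On the probe set of middle brightness the polysomal signals were 1707, 1374 and 1559 at FD19, 1901, 2405 and 1845 at FD22, and 1951, 2046 and 2496 at P1, and the total RNA signals were 899.9, 1256 and 1387 at FD19, 2066, 2072 and 1930.3 at FD22, and 2455, 1786.5 and 1649 at P1. In polysomal RNA the differences of these 2 probe sets, 0.46 ± 0.39 (adjusted p = 0.489) and 0.40 ± 0.17 (adjusted p = 0.116), did not pass. In total RNA both passed, with 1.38 ± 0.39 for the dimmest (adjusted p = 0.0205) and 0.80 ± 0.17 for the middle one (adjusted p = 0.00249). The call for the dimmest was lost without FD19 lysate 1 (0.93, adjusted p = 0.146) and without FD22 lysate 1 (1.25, adjusted p = 0.0616). Across the 18 arrays the 3 probe sets correlated pairwise with r between 0.635 and 0.889.

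Emp2 encodes epithelial membrane protein 2, a tetraspan protein of the PMP22 family. On its brighter probe set the polysomal signals were 1686, 1613 and 1865 at FD19, 3101.5, 2989 and 2937 at FD22, and 2916, 3127 and 3171 at P1, and the total RNA signals were 1032, 1177 and 1214.5 at FD19, 2677, 2208 and 2147 at FD22, and 2499, 2194 and 2344 at P1. All FD22 and P1 arrays lay above all FD19 arrays within a fraction, and the polysomal signal was above the total signal in 9 of 9 lysates. The rise by FD22 was 0.81 ± 0.10 in polysomal RNA (adjusted p = 4.48e-05) and 1.03 ± 0.10 in total RNA (adjusted p = 2.86e-06). On the dimmer probe set the polysomal signals were 374.5, 433 and 511 at FD19, 787, 1169 and 799 at FD22, and 700.1, 1051 and 1215 at P1, and the total RNA signals were 241, 377 and 378 at FD19, 766, 819 and 626 at FD22, and 795, 761 and 796 at P1. This probe set gave 1.04 ± 0.21 in polysomal RNA (adjusted p = 0.00187) and 1.16 ± 0.21 in total RNA (adjusted p = 0.000678), and the 2 probe sets correlated with r = 0.93 over the 18 arrays.

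Hopx encodes a small homeodomain protein that lacks DNA binding of its own and acts as a cofactor of transcription. Its polysomal signals were 886, 699 and 1843 at FD19, 3325.5, 3209 and 3041 at FD22, and 3237.5, 3053 and 3405 at P1. Its total RNA signals were 766, 742.5 and 781 at FD19, 3262, 3212 and 3097 at FD22, and 3425.5, 3323 and 3610.4 at P1. Polysomal FD19 lysate 3 stood well above lysates 1 and 2, while the 3 total FD19 arrays lay between 742.5 and 781. Hopx rose by 1.60 ± 0.21 in polysomal RNA (adjusted p = 4.72e-05) and by 2.06 ± 0.21 in total RNA (adjusted p = 2.96e-06). The polysomal rise was 2.01 without FD19 lysate 3.

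Akap5 encodes an anchoring protein that holds protein kinase A and calcineurin at the plasma membrane. Its polysomal signals were 31.2, 65.2 and 102 at FD19, 388, 346 and 520.0 at FD22, and 405, 623.5 and 586 at P1. Its total RNA signals were 44.9, 41.3 and 98.5 at FD19, 475, 329.6 and 369.5 at FD22, and 296, 592 and 433 at P1. In both fractions lysate 3 was the highest of the FD19 lysates, and every FD22 and P1 array lay above every FD19 array of its fraction. Akap5 rose by 2.68 ± 0.35 in polysomal RNA (adjusted p = 4.08e-05) and by 2.65 ± 0.35 in total RNA (6.27-fold, adjusted p = 3.32e-05). It was 3.03 in polysomal RNA without FD19 lysate 3.

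The comparison of P1 with FD22 asked whether the genes changed further across birth. Of the 11 probe sets, 0 passed the limma test in either fraction, and at an unadjusted p under 0.05 there was 1 in each, that of Aqp5. Over all probe sets 3.79% were called higher and 4.55% lower in polysomal RNA, and 2.21% higher and 1.76% lower in total RNA. The median log2 difference of the 11 probe sets was 0.08 in polysomal RNA and 0.09 in total RNA. Ager differed by 0.31 ± 0.25 in polysomal RNA (adjusted p = 0.531) and by 0.33 ± 0.25 in total RNA (adjusted p = 0.57), and its 3 P1 arrays lay above its 3 FD22 arrays in both fractions. In polysomal RNA Ager and the brightest Cav1 probe set were the 2 of 11 with all P1 arrays above all FD22 arrays (10.3% of all probe sets), and Aqp5 was the 1 of 11 with all P1 arrays below (12.6%). In total RNA Ager and Hopx were the 2 with all P1 arrays above (9.41%), and 0 of 11 lay below (11.3%). A difference that misses the threshold does not show that the levels were equal.

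Aqp5 had the lowest differences of P1 against FD22, -1.15 ± 0.47 in polysomal RNA (95% interval -2.14 to -0.17, adjusted p = 0.148) and -1.23 ± 0.47 in total RNA (95% interval -2.22 to -0.25, adjusted p = 0.17). In total RNA 2 of 3 P1 arrays, at 26.4 and 35.3, were back near the FD19 signals of 11 to 27.7, whereas lysate 2 stood at 108. Without P1 lysate 2 the total RNA difference was -1.79 and passed (adjusted p = 0.0355).

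**Figure D3:**
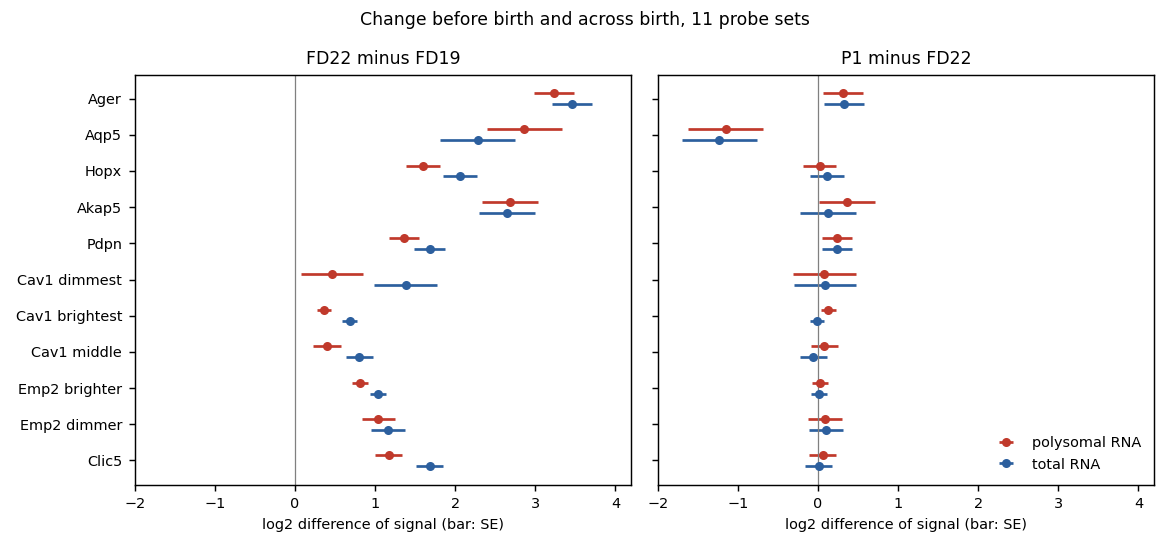
Log2 difference with SE for each probe set, FD22 minus FD19 on the left panel and P1 minus FD22 on the right, in polysomal and total RNA. The left panel runs from 0.36 to 3.46, the right panel from -1.23 to 0.36, with Aqp5 the lowest on the right.

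Measured from FD19, P1 was higher for 10 of 11 probe sets in polysomal RNA (13.1% of all probe sets) and for 10 of 11 in total RNA (12.4%). The exception in polysomal RNA was the dimmest Cav1 probe set, with 0.55 (adjusted p = 0.33). The polysomal call for Aqp5, 1.71 (adjusted p = 0.00966), was lost without FD19 lysate 1 (1.25, adjusted p = 0.06), and that of the middle Cav1 probe set was lost without P1 lysate 2 or 3 or FD19 lysate 2 or 3 (adjusted p up to 0.158). In total RNA the call of the dimmest Cav1 probe set was lost without P1 lysate 1 (1.26, adjusted p = 0.0509) or FD19 lysate 1 (1.02, adjusted p = 0.0719). The exception in total RNA was Aqp5, with 1.05 (adjusted p = 0.112), which passed without P1 lysate 1 (1.41, adjusted p = 0.0494). Of the log2 rise seen by P1, the genes other than Aqp5 had reached 73.8% to 98.9% by FD22 in polysomal RNA and 87.3% to 109% in total RNA. Aqp5 had reached 168% and 218% of its P1 rise, since its P1 means lay below its FD22 means. These percentages do not allow for the unlike spans of time before FD22 and between FD22 and P1.

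The rise before birth was set against the change across birth by the difference of the 2 steps, FD22 minus FD19 less P1 minus FD22. In polysomal RNA this difference passed the threshold, above 0, for 6 of 11 probe sets and 6 of 8 genes, where 2.66% of all probe sets were called higher. In total RNA it passed above 0 for 8 of 11 probe sets and 8 of 8 genes, against 2.4%. The values of all 11 probe sets were above 0 in both fractions. Ager differed by 2.92 ± 0.43 in polysomal RNA (adjusted p = 0.000926) and by 3.14 ± 0.43 in total RNA (adjusted p = 0.000603), and its call held under every alternative run. Aqp5 differed by 4.01 in polysomal RNA (adjusted p = 0.00738) and by 3.51 in total RNA (adjusted p = 0.0202). These values rest partly on signals below the filter level. In total RNA 0 of 3 FD19, 3 of 3 FD22 and 1 of 3 P1 arrays of Aqp5 were above it. In polysomal RNA 1, 3 and 3 were. Aqp5 thus passed the filter largely through FD22, the stage that this difference favours, so the size of its values is uncertain. The counts above include Aqp5. In polysomal RNA Pdpn, with 1.11 (adjusted p = 0.0558), and the brightest Cav1 probe set, with 0.23 (adjusted p = 0.457), did not pass, while with the replicate number as a block Pdpn did (adjusted p = 0.00876). The polysomal count was 2 without FD22 lysate 1 or FD22 lysate 3, 3 without FD22 lysate 2 or FD19 lysate 2, and 7 without FD19 lysate 3. The count in total RNA was 5 without FD22 lysate 1, 4 without FD22 lysate 3 and 8 without FD19 lysate 3. Aqp5 no longer passed in total RNA without FD22 lysate 1 or 3 or P1 lysate 3 (adjusted p up to 0.0957), nor in polysomal RNA without FD22 lysate 3 (adjusted p = 0.0548).

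The ratio of polysomal to total signal in the same lysate asked how far each mRNA was on large polysomes relative to other mRNAs. Because coding length was not taken into account, the order of genes by this ratio cannot be read as an order of translation. Its SE and adjusted p came from the fit of the 6 group means, which does not pair the polysomal and total arrays of a lysate. The fit with the lysate as a block was run as an alternative. Averaged over the 3 stages, the ratio passed the threshold, above 0 on the log2 scale, for 4 of 11 probe sets. These were the probe sets of Emp2, Pdpn and Ager, and 18.8% of all probe sets were called higher. The median of the 11 probe sets was 0.31, against -0.09 for all probe sets tested. The mean ratio was 0.45 ± 0.06 for the brighter Emp2 probe set (adjusted p = 1.05e-05), 0.34 ± 0.12 for the dimmer Emp2 probe set (adjusted p = 0.0282), 0.45 ± 0.11 for Pdpn (adjusted p = 0.00239) and 0.47 ± 0.14 for Ager (adjusted p = 0.0117). Without FD19 lysate 3 the value for Ager was 0.30 (adjusted p = 0.0113), and that of the dimmer Emp2 probe set was 0.34 and no longer passed (adjusted p = 0.0511). Its call was also lost without FD22 lysate 2 or 3 or P1 lysate 2 or 3 (adjusted p up to 0.0861). Polysomal signal was above total signal in 9 of 9 lysates for Pdpn and the brighter Emp2 probe set (11.8% of all probe sets), in 8 of 9 for Ager and in 7 of 9 for Aqp5 and Akap5. Hopx, with 3 of 9, and the brightest Cav1 probe set, with 2 of 9, were at the other end, and their mean ratios of 0.12 and -0.09 did not pass (adjusted p = 0.441 and 0.152). The value of the brightest Cav1 probe set depended on scaling, since quantile normalization gave 0.34 (adjusted p = 0.000206), and the same scaling brought Hopx to 0.36 (adjusted p = 0.0335). With the lysate as a block the dimmest Cav1 probe set, at 0.51 (adjusted p = 0.0705), passed as well (adjusted p = 0.00816).

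Stage by stage, the ratio at FD19 passed for 3 of 11 probe sets (9.97% of all probe sets): the brighter Emp2 probe set with 0.59 ± 0.10 (adjusted p = 0.000714), Pdpn with 0.67 ± 0.19 (adjusted p = 0.0169) and the dimmest Cav1 probe set with 1.12 ± 0.39 (adjusted p = 0.0478). The 3 FD19 lysates of the brighter Emp2 probe set gave 0.70, 0.45 and 0.62, and those of Pdpn 1.15, 0.16 and 0.70. For Ager they gave -0.16, 0.38 and 1.68, and for Hopx 0.21, -0.09 and 1.23, so that lysate 3 set the means of 0.63 (adjusted p = 0.0788) and 0.45 (adjusted p = 0.135). Without FD19 lysate 3 these means were 0.11 for Ager and 0.06 for Hopx, and the count was 1, with the brighter Emp2 probe set at 0.58 (adjusted p = 0.0137). Without FD19 lysate 1 the ratio of Ager was 1.03 and passed (adjusted p = 0.0104), and those of Pdpn (0.43, adjusted p = 0.17) and the dimmest Cav1 probe set (0.79, adjusted p = 0.232) did not. Without FD19 lysate 2 Hopx passed (0.72, adjusted p = 0.0468) and the dimmest Cav1 probe set did not (1.34, adjusted p = 0.103). At FD22 and at P1 the ratio passed for 1 of 11 probe sets each (6.76% and 8.12% of all probe sets), in both cases the brighter Emp2 probe set, with 0.37 ± 0.10 (adjusted p = 0.024) and 0.39 ± 0.10 (adjusted p = 0.0145). Its call at FD22 was lost without FD22 lysate 2 or 3, and its call at P1 without P1 lysate 2 or 3. For Ager the 3 lysates gave 0.24, 0.47 and 0.49 at FD22 and 0.22, 0.34 and 0.60 at P1, all above 0.

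**Figure D4:**
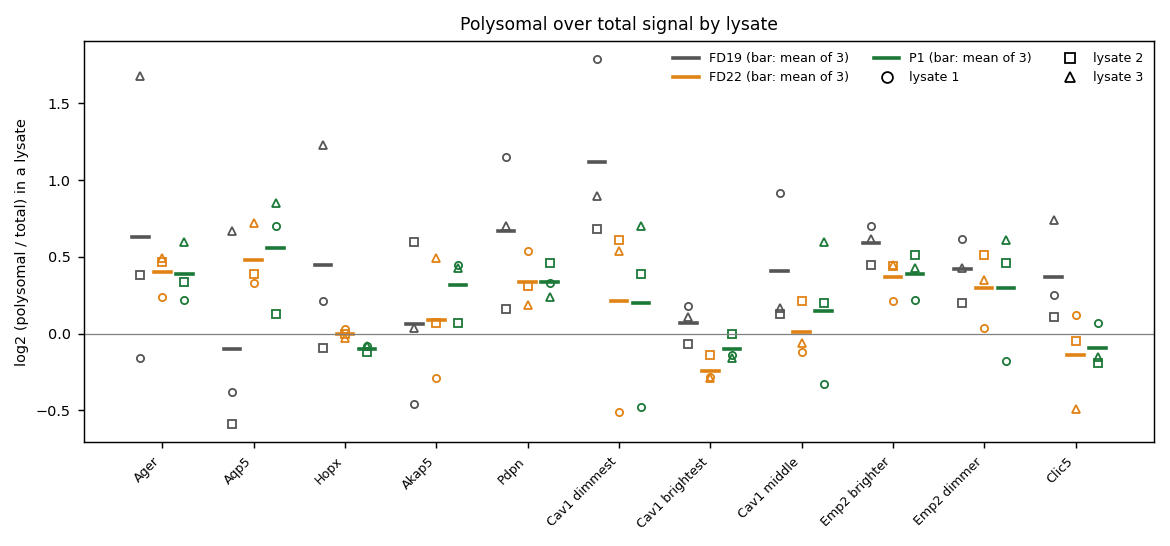
Log2 ratio of polysomal to total signal in each of the 9 lysates for the 11 probe sets, with bars at the mean of 3 lysates per stage. All 9 points of Pdpn and of the brighter Emp2 probe set lie above 0, and the FD19 points of lysate 3 stand highest for Ager and Hopx, at 1.68 and 1.23.

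Whether the ratio itself changed between stages was tested as the interaction of stage and fraction, in the same fit without pairing by lysate. No call of a member changed when the lysate was a block. Of the 11 probe sets, 0 passed the limma test in any of the 3 stage pairs, and 2, 0 and 0 had an unadjusted p under 0.05 for FD22 against FD19, P1 against FD22 and P1 against FD19. The 2 were Clic5, with -0.51 ± 0.24, and the brightest Cav1 probe set, with -0.31 ± 0.12 (adjusted p = 0.999 for both). Over all 21675 probe sets the same test called 0, 3 and 25 (0.0%, 0.0138% and 0.115%). The ratio change of FD22 against FD19 had a median of -0.31 over the 11 probe sets and -0.27 over the 8 genes, against -0.03 for all probe sets. Cav1 and Emp2 gave 3 and 2 of the 11 probe sets. The polysomal array of FD19 lysate 3, on which all 11 were high, enters these values, and the medians are not given without it. The FD19 ratios of Clic5 in lysates 1, 2 and 3 were 0.25, 0.11 and 0.74, so lysate 3 added to its fall. Those of the brightest Cav1 probe set were 0.18, -0.07 and 0.11. Ager had -0.23 ± 0.35, and without FD19 lysate 3 it had 0.29, so its sign rested on that lysate.

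Across the 18 arrays the log2 signal of each gene followed the mean of the other 7, with r between 0.905 and 0.982 for the genes other than Aqp5, for which r was 0.782. These correlations describe arrays that share lysates and the large difference between FD19 and the later stages. Among the named genes outside the list, those most like the mean of the 8 were Dpep1 (r = 0.982), a renal-type dipeptidase, Fgl2 (0.979), a fibrinogen-like protein, Chia (0.979), an acidic chitinase, Fetub (0.979), a secreted fetuin, Pon3 (0.975), a paraoxonase, and Slco2a1 (0.973), a prostaglandin transporter. The 3 most like Ager alone were Fetub (0.986), Fgl2 (0.985) and Chia (0.984). Fetub had mean signals of 38.7, 732 and 782 in polysomal RNA and 16.2, 546 and 495 in total RNA at FD19, FD22 and P1.

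A wider list of 22 type I cell genes had 15 members tested. At FD22 against FD19, 13 were higher and 1 lower in polysomal RNA, and 12 were higher and 1 lower in total RNA, with medians of 0.70 and 0.89, where 7.7% and 7.82% of all probe sets were called lower. The smallest p-values in both fractions were those of Gprc5a, a retinoic acid-induced orphan receptor (1.02 ± 0.11 polysomal, 1.05 ± 0.11 total), Timp3, an inhibitor of metalloproteinases (1.38 ± 0.18 and 1.40 ± 0.18), and Limch1, an activator of non-muscle myosin (0.84 ± 0.12 and 0.89 ± 0.12), with adjusted p of at most 9.93e-05. Igfbp2, an IGF-binding protein, was the only member of the list that fell, by 1.08 ± 0.18 in polysomal RNA (adjusted p = 0.00031) and by 1.00 ± 0.18 in total RNA (adjusted p = 0.00053). Without FD19 lysate 2 the polysomal calls of 5 of the 13 higher genes were lost, those of Cav2, Cryab, P2rx4, Sema3b and Vegfa. Without FD19 lysate 3 the counts of higher genes were 11 in polysomal and 10 in total RNA, and with the arrays numbered 2 and 3 only they were 6 and 9. Across birth 2 genes were higher in each fraction: the keratin gene Krt7, by 1.37 ± 0.19 in polysomal RNA (adjusted p = 0.000273) and 1.16 ± 0.19 in total RNA (adjusted p = 0.00177), and Lmo7, by 0.57 and 0.52 (adjusted p = 0.0132 and 0.0361). The calls of Lmo7 were lost without P1 lysate 2 or FD22 lysate 2 in both fractions, and in total RNA also without P1 lysate 3 or FD22 lysate 1 or 3 (adjusted p up to 0.0746 in polysomal and 0.153 in total RNA).

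Regulators linked to type I cell fate, including the lung transcription factor Nkx2-1 and factors of the YAP and TEAD pathway, were tested for 11 of 13 genes. In total RNA at FD22 the transcription factor genes Cebpa, by 0.89 ± 0.18 (adjusted p = 0.00204), and Klf4, by 0.83 ± 0.18 (adjusted p = 0.00304), were higher. Nkx2-1 and Tead1 were lower, by -0.38 each (adjusted p = 0.013 and 0.0241), and neither passed without FD22 lysate 2 (adjusted p = 0.0621 and 0.0523) or without FD19 lysate 2 (0.0559 and 0.0998). The call of Nkx2-1 was also lost without FD19 lysate 3, and that of Tead1 without FD22 lysate 1 or 3 or FD19 lysate 1. Polysomal RNA gave 2 higher, Klf4 and Cebpa, and 1 lower, Nkx2-1, and each of these calls was lost without FD19 lysate 2 (adjusted p = 0.0872, 0.125 and 0.171). Those of Klf4 and Cebpa were also lost without FD22 lysate 1 (0.0595 and 0.071), that of Klf4 without FD19 lysate 3 (0.0525), and that of Nkx2-1 without any of the FD19 lysates or without FD22 lysate 2 or 3 (0.0513 to 0.171). Across birth Ccn2, a matricellular protein gene that YAP and TEAD are known to activate, rose by 1.52 ± 0.14 in polysomal RNA (adjusted p = 8.85e-06) and by 1.61 ± 0.14 in total RNA (adjusted p = 2.22e-06), and Klf4 rose by 1.03 ± 0.18 and 1.19 ± 0.18. Polysomal RNA also had Nkx2-1 higher by 0.36 (adjusted p = 0.031), a call lost without any of the P1 lysates or without FD22 lysate 2 or 3. Total RNA had Cebpa lower (-0.69, adjusted p = 0.0393), a call lost without any of the P1 lysates or without FD22 lysate 1 or 2. Amotl2, another gene that YAP activates, had 0.11 and 0.13 and did not pass. Ccn1 of the same list did not pass either, but its mean signals were higher at P1 and varied widely between arrays. They were 68.5 ± 34.9 at FD22 and 184.4 ± 115.2 at P1 in polysomal RNA (SD, n = 3 each). In total RNA they were 86.3 ± 40.9 and 178.3 ± 107.5. In total RNA the difference of Ccn2 at FD22 against FD19 was -0.01 ± 0.14 (adjusted p = 0.978).

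Relatives of the 8 genes in the same families, 11 of 13 tested, included genes called before birth and genes called across birth. At FD22 against FD19, 2 were higher in polysomal RNA and 3 in total RNA (5 under quantile normalization): Aqp4, a water channel (1.76 ± 0.28 polysomal, 1.64 ± 0.28 total), and Cav2, the partner of caveolin 1 (0.70 ± 0.17 and 1.02 ± 0.17), in both, and Aqp1, the endothelial water channel, in total RNA (0.67 ± 0.18). Across birth 5 were higher in each fraction, against 3.79% of all probe sets in polysomal RNA and 2.21% in total RNA. In total RNA the calls of Aqp1 (0.66) and Clic1 (0.41) were both lost on leaving out FD22 lysate 2 or 3 or P1 lysate 1 or 2, and under quantile normalization or with no filter, and the count was 3 without FD22 lysate 2 or P1 lysate 2 and under quantile normalization. Aqp3, a water and glycerol channel, rose by 2.33 ± 0.23 in polysomal RNA (adjusted p = 8.85e-06) and by 1.62 ± 0.23 in total RNA (adjusted p = 0.000401). Emp1 rose by 0.87 ± 0.13 and 1.25 ± 0.13 (adjusted p = 0.000587 and 1.81e-05), and Clic4 by 0.61 ± 0.10 and 0.85 ± 0.10 (adjusted p = 0.00143 and 9.81e-05). The difference of the prenatal step and the birth step was called below 0 for 2.12% of all probe sets in polysomal RNA and 1.46% in total RNA. It passed below 0 for Aqp3, -2.43 in polysomal RNA (adjusted p = 0.00163) and -1.54 in total RNA (adjusted p = 0.034), and for Emp1, -0.82 (adjusted p = 0.0481) and -1.18 (adjusted p = 0.00669). These are the paralogs of Aqp5 and Emp2, whose own differences of steps were above 0. The step call of Aqp3 in total RNA was lost without FD19 lysate 3, any FD22 lysate, or P1 lysate 1 or 2 (-1.41 with adjusted p = 0.163 without FD22 lysate 3). That of Emp1 in total RNA was lost without FD22 lysate 3 (-0.88, adjusted p = 0.0586), and that in polysomal RNA on leaving out any lysate other than P1 lysate 1 (adjusted p up to 0.119). The prenatal call of Aqp1 was lost without FD19 lysate 2 (0.52, adjusted p = 0.0867) or FD22 lysate 1 (0.56, adjusted p = 0.0662), and the polysomal call of Cav2 without FD19 lysate 2 (0.60, adjusted p = 0.0512). The mean ratio of polysomal to total signal was called above 0 for 7 of the 11 relatives, among them Clic1 (0.84 ± 0.06) and Emp1 (0.67 ± 0.08). Over all probe sets 18.8% were called above 0.

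**Figure D5:**
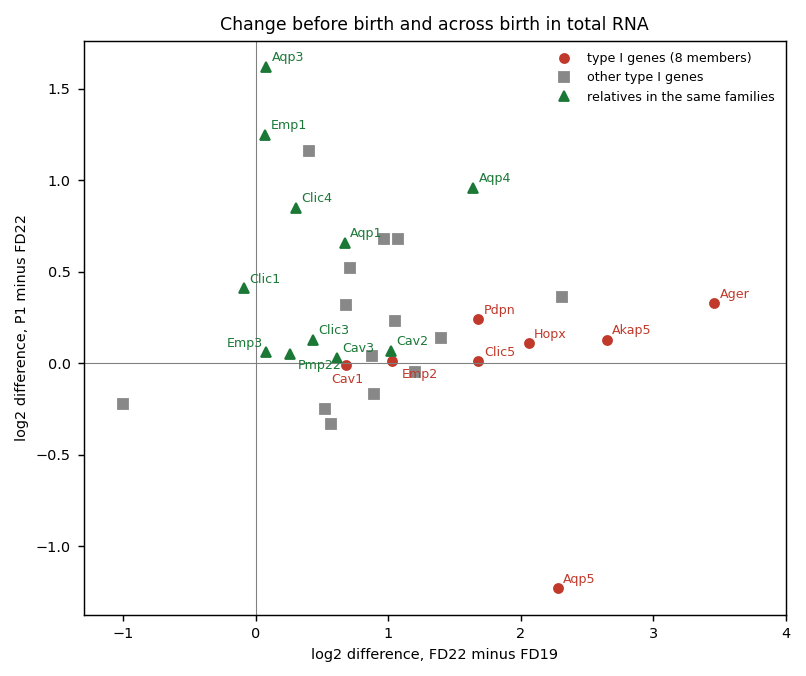
Log2 difference in total RNA before birth (FD22 minus FD19, horizontal) and across birth (P1 minus FD22, vertical) for the 8 genes, the other type I cell genes and the relatives in the same families. The 8 genes lie to the right between 0.68 and 3.46 and, apart from Aqp5 at -1.23, close to 0 on the vertical axis, while Aqp3, Emp1 and Clic4 lie at 1.62, 1.25 and 0.85 on the vertical axis.

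Partners and ligands of the 8 proteins, 18 of 19 tested, included 8 higher and 0 lower in polysomal RNA and 6 higher and 2 lower in total RNA at FD22 against FD19. Among ligands of the receptor encoded by Ager, S100a8 (1.35 ± 0.29 polysomal, 1.29 ± 0.29 total) and S100a9 (1.13 ± 0.30 and 1.38 ± 0.30), which leukocytes express, and S100a4 (0.72 ± 0.22 and 1.28 ± 0.22) were higher, while Hmgb1 was lower in total RNA (-0.38 ± 0.11, adjusted p = 0.0267). The polysomal call of S100a9 was lost without FD22 lysate 1 (0.90, adjusted p = 0.0764) or FD19 lysate 2 (adjusted p = 0.114). That of S100a4 was lost without FD22 lysate 1 (0.49, adjusted p = 0.139) or FD19 lysate 2 or 3 (adjusted p = 0.15 and 0.0755). The call of Hmgb1 in total RNA was lost without FD22 lysate 3 (adjusted p = 0.089) or FD19 lysate 1 or 3 (-0.29 with adjusted p = 0.155 without lysate 1). Cd44, the hyaluronan receptor that binds podoplanin, rose by 0.98 ± 0.17 in polysomal RNA (adjusted p = 0.00043) and by 1.07 ± 0.17 in total RNA (adjusted p = 0.000177). Across birth Ezr, which encodes the membrane linker ezrin that binds podoplanin and Clic5, rose by 0.83 ± 0.14 in polysomal RNA (adjusted p = 0.00128) and by 0.92 ± 0.14 in total RNA (adjusted p = 0.00087).

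Markers of other lung cell types moved over the same stages. At FD22 against FD19 in total RNA, 8 of 10 type II cell markers were higher and 1 lower, 9 of 11 endothelial markers were higher, and so were 6 of 6 leukocyte, 4 of 5 airway, 2 of 4 mesothelial and 1 of 4 lymphatic markers. General epithelial markers gave 1 higher and 2 lower of 8, and 4 of 6 smooth muscle markers and 3 of 5 erythroid markers were lower. In total RNA the difference of steps passed above 0 for 6 of 6 leukocyte and 7 of 10 type II markers. It also did for 3 of 5 airway and 3 of 11 endothelial markers, against 2.4% of all probe sets. It passed below 0 for 3 of 6 smooth muscle, 2 of 8 general epithelial and 1 of 5 erythroid markers. Across birth 0 leukocyte, type II or airway markers were called in total RNA. A larger change before birth was thus not particular to the 8 genes. For the genes that these cells also express, the summed signal of the 11 endothelial markers, Pecam1 and Ace among them, ran from 6299 to 7252 in polysomal and from 4952 to 5498 in total RNA at FD19. At FD22 it ran from 9759 to 10531 in polysomal and from 8328 to 9134 in total RNA, with no overlap between the stages. At P1 it ran from 11027 to 12543 in polysomal and from 9607 to 10555 in total RNA. The single markers were mixed across birth, with 3 of 11 called higher and 2 lower in polysomal RNA, and 2 higher and 1 lower in total RNA. The polysomal mean of Kdr, for instance, went from 1372.1 at FD22 to 1007.8 at P1, and that of Cldn5 from 2234.6 to 2898.2. In total RNA the sum of the 4 mesothelial markers ran from 530 to 644 at FD22, against 366 to 449 at FD19. The sum of the 4 lymphatic markers ran from 837 to 1305 at FD22, against 1125 to 1250 at FD19. The defining lymphatic factor Prox1 had mean signals of 53.5 ± 11.5 at FD22 and 58.5 ± 14.5 at FD19 in total RNA (SD, n = 3 each). The other lymphatic markers went in different directions. Ccl21 had 238.8 ± 12.9 at FD22 and 104.7 ± 20.2 at FD19, and Flt4 had 61.5 ± 18.4 and 47.3 ± 10.4. Lyve1, the brightest of the 4, had 673.1 ± 221.2 and 978.6 ± 72.8 and made up most of the sum. The contribution of these cell types to the rises of Cav1 and Pdpn was not tested.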

How the data were processed

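The deposited values are linear intensities, 1 per probe set, from 18 Affymetrix Rat Genome 230 2.0 arrays. The authors made them with GCOS 1.4 per the submitters' processing notes, and the signal algorithm is not given in the sources used here. Polysomal and total arrays share the same scale, so a polysomal to total ratio is relative.

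From 31099 probe sets, 57 controls were removed, and the 21675 whose signal exceeded 40.8 (the 40th percentile) in at least 3 arrays were tested. A constant of 5.5, the 10th percentile, was added before taking log2. The 6 group means were fitted in limma 3.58.1 under R 4.3.3 (lmFit, contrasts.fit, eBayes with trend), which left 12 residual degrees of freedom for 15 contrasts. Adjusted p-values throughout are limma's with Benjamini-Hochberg adjustment over all probe sets tested, and the threshold was 0.05. The code was tested on simulated data. Summaries and plots were made in Python 3.11.15 with numpy (2.4.6), pandas (2.3.3) and, for plots, matplotlib (3.10.9). Precision is limited by the small number of arrays.

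The 8 genes and the other lists were chosen with earlier results of these data known. All 8 genes are described with every probe set. From other lists, up to 4 called genes with the smallest p in a comparison are named, each by its brightest kept probe set. The platform annotation names exactly 1 gene for 20826 of the non-control probe sets, more than 1 for 436, and leaves 9780 unnamed. By Entrez identifier 20758 were found in the RefSeq gene table, and 0 symbols changed.

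The design states that polysomal and total RNA of a number share a lysate, and after subtracting group means the paired arrays correlated with r = 0.186 to 0.488, above 0.1 in 9 of 9 lysates. Across stages, equal numbers correlated above 0.1 in all 3 pairs for polysomal FD22 and FD19 (0.226 to 0.498) and for total P1 and FD19 (0.119 to 0.313), a pairing seen in the data and not stated in the labels. The alternatives were other constants (1st and 30th percentile), no filter or one at the 60th percentile, quantile normalization, median centring, no variance trend, only the groups compared, the probe set with the largest SD, a replicate block, arrays 2 and 3 only, and each lysate left out.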

Additional observations from a re-analysis of the deposited data

How the results depend on the processing

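Over 2629 values of single probe sets under the alternatives, 2514 kept their side of the threshold, 88 lost a call and 25 gained one. The other 2 had not passed and passed with the opposite sign, both for the brightest Cav1 probe set under quantile normalization, where the FD22 ratio was 0.32 instead of -0.24 and the mean ratio 0.34 instead of -0.09. Among the values that kept their side, 96 that were not called changed sign. The cause was not tested. For P1 against FD22 in total RNA, the count of lower probe sets was 0, and between 0 and 1 on leaving out each lysate. For the difference of steps, the polysomal count of 6 was 3 without the variance trend, 1 with the arrays numbered 2 and 3 only, and 2 to 7 on leaving out each lysate, and the count of 8 in total RNA was 3 with the arrays numbered 2 and 3 only and 4 to 9 on leaving out each lysate. With fewer arrays the fits have fewer residual degrees of freedom. For the ratio, the count of 3 at FD19 was 1 to 3 on leaving out each lysate. The count of 1 at FD22 was 2 under quantile normalization, 0 without the variance trend, 0 with only the groups compared, and 0 to 1 on leaving out each lysate, and that of 1 at P1 was 0 to 1. The mean ratio had no alternative with only the groups compared.

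With the replicate block, the lysate for ratios, the count of the FD19 ratio was 4 (the dimmer Emp2 probe set passed with adjusted p = 0.0457), that of the mean ratio 5, and that of the polysomal difference of steps 7. The block also brought the step difference of the dimmer Emp2 probe set in total RNA to adjusted p = 0.0438. The pairing changed the counts of members for no comparison of 1 stage with another. Scaling moved the median ratio of all probe sets to 0.01 in the mean of stages, against -0.09, under quantile normalization. Over all probe sets the mean ratio was called higher for 4085 and lower for 5972, against 4895 and 4234 under quantile normalization and 5121 and 4684 under median centring. The same split was 2161 and 2364 for the FD19 ratio (2356 and 1916 under quantile normalization, 2463 and 1988 under median centring), 1465 and 1864 for the FD22 ratio (1671 and 1408, 2121 and 1352), and 1760 and 2244 for the P1 ratio (1858 and 1592, 2297 and 1699). Median centring gave 1050 and 747 in place of 821 and 986 for P1 against FD22 in polysomal RNA, and 637 and 260 in place of 479 and 382 in total RNA.

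Whole-lung RNA cannot assign a signal to a cell type, 3 arrays per group leave wide intervals for Aqp5, Akap5 and the dimmest Cav1 probe set, and the FD19 signals of Aqp5 were near the background of the array.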
